A study of Mus musculus with 4 samples.

Results

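The genes described here are the nuclear genes of the mitochondrial respiratory chain and ATP synthase, measured in salivary glands of Myd88-KO and Wildtype mice. They were chosen by name alone. All genes on the array whose symbol starts with Nduf, Sdh, Uqcr, Cox followed by a digit, or Atp5 were taken, and pseudogene names were left out. This gave 99 of the 34844 gene names on the array, represented by 149 probes. Of these genes, 97 were bright enough to be compared, out of 22312 genes compared in all.

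The study concerned innate defence of the mouth in mice without MyD88, the signalling adaptor of most Toll-like receptors, and in it the antimicrobial products of salivary glands. Total RNA of the glands was labelled with Cy3 and hybridized to 1-colour Agilent whole mouse genome arrays, with 2 arrays for each group. The Myd88-KO group consisted of Myd88-null mice, a whole-body deletion from the Akira laboratory that had been backcrossed to wild-type mice, and the Wildtype group of mice with intact Myd88. Per the labels, both groups were C57/BL6, female and 10 weeks old, and the tissue was the submandibular together with the sublingual glands; the study's paper names the submandibular gland alone and more samples per genotype for the arrays, and the labels were followed. Knockout and control mice were born to heterozygous parents. Per the study's paper, surrounding fat, connective tissue and lymph nodes had been cut away before RNA was extracted. The labels name no treatment. The labels do not say whether the 2 samples of a group came from separate animals, so the p-values measure the spread between these samples, which may be technical.

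All 4 arrays lay on 1 slide and came from 1 scan. The share of the 55681 probes that stood well above background was 52.2% and 68.4% for Myd88-KO arrays 1 and 2 and 74.1% and 55.1% for Wildtype arrays 1 and 2. Of the 149 respiratory chain probes, 143, 143, 146 and 144 were well above background on the 4 arrays in the same order. No spot was saturated. A level below is the log2 signal of a probe minus the 75th percentile of its array, and the brightest tested probe stands for its gene. Probes differ in brightness for the same amount of transcript, so levels were compared between arrays. Where a gene is called the brightest of a list, its probe had the highest mean level, which does not rank transcripts by abundance. A difference is the mean of the Myd88-KO arrays minus the mean of the Wildtype arrays, and the number of arrays limits its precision.

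The respiratory chain passes electrons from NADH and succinate through complexes I, II, III and IV to oxygen, and complex V uses the proton gradient so built to make ATP. Most subunits are encoded in the nucleus and are made in nearly every cell, whereas a few subunits of complex IV, cytochrome c oxidase, exist in a form typical of heart and skeletal muscle beside a widely expressed form. Salivary duct cells are rich in mitochondria, which supply the ATP for ion transport, and brown fat cells also use muscle forms of cytochrome c oxidase.

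The deleted gene was read first. Myd88 has 1 probe with 10 spots, and its level was 1.51 and 1.41 on the Myd88-KO arrays and 1.15 and 1.07 on the Wildtype arrays. Its difference was 0.35 with a standard error of 0.11 (limma, adjusted p = 0.264), so the signal was not lower in the Myd88-KO samples. Since the probe may lie outside the deleted part of the gene, it checks nothing about the samples. Groups carry the names given in the labels throughout.

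The tissue was checked with 11 salivary gland markers, all of which were well above background on all 4 arrays. Their summed signal, in units of the 75th percentile of each array, was 5800 and 5260 on the Myd88-KO arrays and 5360 and 5670 on the Wildtype arrays. The brightest of them was Dcpp1, a demilune secretory protein, at 10.60, 10.62, 10.27 and 10.34 in the order Myd88-KO 1, Myd88-KO 2, Wildtype 1 and Wildtype 2, which is the order used for 4 values below. Smr3a, a secreted submandibular peptide precursor, had levels of 8.31, 6.68, 9.45 and 9.26 and a difference of -1.86, or -1.04 without Myd88-KO replicate 2. The amylase gene Amy1 had levels of 9.46, 8.39, 9.46 and 9.54, and its difference of -0.57 was -0.03 without the same array. The median difference of the 11 markers was 0.03, or -0.19 to -0.01 under the 5 other scalings run and -0.03 to 0.04 when 1 array was left out; 2 were higher and 1 was lower at an unadjusted p under 0.05, beside 9.82% and 6.83% of all genes.

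The muscle isoforms of cytochrome c oxidase had the largest differences among the respiratory chain genes that separated the groups and were well above background on all 4 arrays. Cox6a2, Cox7a1 and Cox8b were each lower on both Myd88-KO arrays than on both Wildtype arrays, by a log2 difference of 1 or more, whereas 92 of the 97 genes tested differed by less than 0.5. The proteins are the heart and muscle forms of subunits VIa, VIIa and VIII, which sit around the catalytic core of the enzyme. None of the 3 passed the adjusted threshold of 0.05 in limma.

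Cox6a2 had levels of -1.80, -1.17, -0.37 and 1.74. Its difference was -2.17 with a standard error of 0.81 (limma, adjusted p = 0.316), 4.49-fold lower in Myd88-KO. Wildtype array 2 stood above all others by a wide margin, and the Wildtype pair lay 2.11 apart. Without Wildtype replicate 2 the difference was -1.11, and without Wildtype replicate 1 it was -3.22.

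Cox7a1 had levels of 4.46, 5.06, 5.73 and 5.98. Its difference was -1.10 with a standard error of 0.25 (limma, adjusted p = 0.220), 2.14-fold lower in Myd88-KO. Here the lowest value by a margin was that of Myd88-KO array 1 and the Wildtype pair lay close together. Cox8b had levels of 4.62, 5.69, 6.32 and 6.44. Its difference was -1.23 with a standard error of 0.40 (limma, adjusted p = 0.284), 2.34-fold lower in Myd88-KO. Myd88-KO array 1 was again the lowest, 1.07 below Myd88-KO array 2, while the Wildtype arrays differed by 0.12. Without Myd88-KO replicate 1 the difference of Cox8b was -0.69.

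The widely expressed partners of these isoforms differed by less. Cox6a1 had levels of 8.59, 8.73, 8.84 and 8.86 and a difference of -0.19 with a standard error of 0.11 (limma, adjusted p = 0.457). Cox7a2 had levels of 5.69, 5.82, 5.69 and 5.78, and its difference was 0.02, or -0.08 to -0.03 under the 5 other scalings. Cox8a had levels of 7.87, 7.93, 7.86 and 8.02 and a difference of -0.04, or 0.04 without Wildtype replicate 2 and -0.17 with loess. The groups overlapped for Cox7a2 and Cox8a, and for Cox6a1, whose difference was -0.12 without Myd88-KO replicate 1, the Wildtype arrays were slightly higher. The other tested probe of Cox8a had levels of 7.07, 7.06, 7.10 and 7.32 and a difference of -0.14, with the groups apart.

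**Figure D1:**
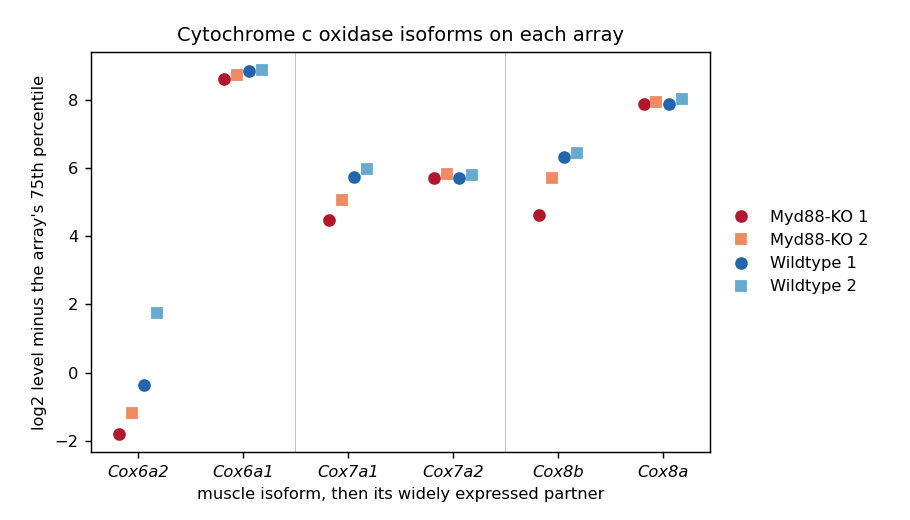
Level of each muscle isoform and its widely expressed partner on each array, as log2 signal minus the array's 75th percentile (vertical axis), with 1 point per array. The Myd88-KO points of Cox6a2, Cox7a1 and Cox8b lie below the Wildtype points, and those of Cox7a2 and Cox8a overlap with them; heights are not comparable between genes.

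Taking each isoform relative to its partner on the same array removes any shift of the whole array. Because each value sets one probe against another, only its difference between arrays is read. Cox6a2 minus Cox6a1 was -10.39 and -9.89 on the Myd88-KO arrays and -9.21 and -7.12 on the Wildtype arrays, a difference of -1.98 or 3.94-fold. Cox7a1 minus Cox7a2 was -1.23 and -0.76 against 0.04 and 0.19, a difference of -1.11 or 2.17-fold. Cox8b minus Cox8a was -3.25 and -2.24 against -1.53 and -1.58, a difference of -1.19 or 2.28-fold. In all 3 pairs both Myd88-KO arrays lay below both Wildtype arrays. The exact two-sided permutation test gave p = 0.333 for each pair, which is the smallest p that 2 arrays against 2 allow. The contrasts kept their sign under the 13 other settings in which they were computed. Some of these settings, such as median centring, shift all probes of an array alike and so cannot move the contrasts. In size, 2 of them rest on single arrays, since the Cox6a2 contrast was -0.94 without Wildtype replicate 2 and -3.02 without Wildtype replicate 1, and the Cox8b contrast was -0.69 without Myd88-KO replicate 1; the Cox7a1 contrast was -1.35 to -0.88 when 1 array was left out.

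The promoters of the isoform genes are shown because the muscle forms were lower together and by more than their partners. The 250 bases before the gene start are printed in the direction of transcription, from RefSeq on GRCm38.p6: Cox7a1 at chr7:30183921-30184170 on the plus strand, Cox8b at chr7:140900447-140900696 on the minus strand, Cox7a2 at chr9:79759854-79760103 on the minus strand, Cox8a at chr19:7217617-7217866 on the minus strand and Cox6a1 at chr5:115348959-115349208 on the minus strand. No promoter is printed for Cox6a2. Capitals mark matches, searched on both strands, to the core letters of the NRF-1 motif (CGCATGCG), the ETS motif (CCGGAAG) and an E-box of the kind bound by muscle regulatory factors (CAGCTG). The NRF-1 motif was shortened to these letters after a first run with a longer form.
Cox7a1: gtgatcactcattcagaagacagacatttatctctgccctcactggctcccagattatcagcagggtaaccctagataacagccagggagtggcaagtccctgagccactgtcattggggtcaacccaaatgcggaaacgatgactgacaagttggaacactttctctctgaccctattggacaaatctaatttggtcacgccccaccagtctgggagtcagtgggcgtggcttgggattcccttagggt
Cox8b: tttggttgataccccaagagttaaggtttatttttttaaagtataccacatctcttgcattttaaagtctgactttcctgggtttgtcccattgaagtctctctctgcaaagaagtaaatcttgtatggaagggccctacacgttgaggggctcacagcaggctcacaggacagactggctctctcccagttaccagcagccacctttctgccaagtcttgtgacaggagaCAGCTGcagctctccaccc
Cox7a2: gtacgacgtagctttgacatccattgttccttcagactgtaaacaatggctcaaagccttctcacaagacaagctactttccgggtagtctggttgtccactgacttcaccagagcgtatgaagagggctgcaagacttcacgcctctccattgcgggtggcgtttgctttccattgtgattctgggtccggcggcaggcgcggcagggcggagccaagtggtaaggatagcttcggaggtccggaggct
Cox8a: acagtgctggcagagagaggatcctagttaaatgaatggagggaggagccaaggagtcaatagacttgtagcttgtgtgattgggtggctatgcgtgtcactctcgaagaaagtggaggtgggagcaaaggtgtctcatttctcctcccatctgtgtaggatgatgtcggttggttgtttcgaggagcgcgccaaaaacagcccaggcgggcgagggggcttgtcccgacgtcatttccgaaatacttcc
Cox6a1: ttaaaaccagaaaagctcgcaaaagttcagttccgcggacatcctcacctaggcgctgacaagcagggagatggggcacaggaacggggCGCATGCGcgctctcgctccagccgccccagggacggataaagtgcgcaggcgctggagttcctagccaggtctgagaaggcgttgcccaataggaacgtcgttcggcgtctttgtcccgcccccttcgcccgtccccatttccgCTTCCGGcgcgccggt

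NRF-1 and GABP, an ETS factor, are known regulators of respiratory chain genes. In these stretches Cox6a1 held 1 NRF-1 match and 1 ETS match, Cox8b held 1 E-box, and Cox7a1, Cox7a2 and Cox8a held none of the 3; no marked matches overlap. Among all 32851 promoters of the table, 1.55% held the NRF-1 letters, 6.91% the ETS letters and 13% the E-box. RefSeq promoters were matched for 81 of the 99 genes, with 88 promoters in all, of which 8 (9.09%) held the NRF-1 letters, 17 (19.3%) the ETS letters and 6 (6.82%) the E-box. A match describes the letters in the window and shows no binding.

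Because muscle isoforms can come from muscle or fat cells in the sample, the markers of these cells were read on the same arrays. Skeletal muscle was represented by 23 marker genes, of which 20 could be tested. Both Myd88-KO arrays lay below both Wildtype arrays for 18 of the 20, beside 18.7% of all genes, and 14 were lower at an unadjusted p under 0.05, beside 6.83% of all genes. Of the 20, 8 were tested because of the Wildtype arrays alone; among the 12 well above background on all arrays 10 were lower on both Myd88-KO arrays and 7 at an unadjusted p under 0.05, with a median difference of -2.62. Over all 20 the median difference was -3.10, or -2.96 with 5 genes at their lower bound, -3.35 to -1.70 under the 5 other scalings and -3.97 to -2.40 when 1 array was left out. The summed signal of the list was 15.3, 14.2, 43.3 and 206, and 13, 16, 22 and 21 of the 23 genes were well above background. Wildtype array 2 therefore held the most muscle signal and both Myd88-KO arrays the least.

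Myh4, a fast myosin heavy chain, had levels of -4.55, -4.89, 2.47 and 5.06. It was not well above background on either Myd88-KO array and was at least 218-fold higher in Wildtype (adjusted p = 0.194 from limma). The size of this bound depends on single Wildtype arrays. The log2 difference of -8.49, measured with Myd88-KO at background, was -7.19 without Wildtype replicate 2 and -9.78 without Wildtype replicate 1. The bound takes the Wildtype mean minus a floor for each Myd88-KO array, namely the dimmest value there that counted as well above background, or the value of the probe if brighter. Myh8, the perinatal myosin heavy chain, had levels of -3.55, -3.43, 2.76 and 5.30. Both myosins were high on Wildtype array 2, lower on Wildtype array 1 and far lower on the Myd88-KO arrays, where Myh8 was still above background. Eno3, a muscle enolase with the brightest probe of the list, had levels of 3.30, 3.05, 2.83 and 3.66, and its groups overlapped with a difference of -0.48 to 0.34 when 1 array was left out. Of the 23 markers, 6 were at background on both Myd88-KO arrays and 0 on both Wildtype arrays.

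Fat cell markers were lower in Myd88-KO as well, with another order of the arrays. Of 7 adipocyte markers 6 were tested, and 5 were lower on both Myd88-KO arrays, beside 18.7% of all genes, with a median difference of -0.71, or -0.79 to -0.76 under the other scalings and -1.11 to -0.44 when 1 array was left out, and 2 were lower at an unadjusted p under 0.05, beside 6.83%. Their summed signal was 153, 238, 324 and 328. The brightest was Fabp4, a fatty acid carrier, at 6.50, 7.17, 7.61 and 7.73, and Plin1, which coats lipid droplets, was at 1.75, 2.63, 3.39 and 3.18. Of the 7 markers, 1 was at background on all 4 arrays. Myd88-KO array 1 was the lowest for both named genes, and the Wildtype arrays were close to each other. Without it the differences of Fabp4 and Plin1, -0.84 and -1.09, were -0.50 and -0.65.

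All 5 brown adipocyte markers were tested and 4 were lower on both Myd88-KO arrays, beside 18.7% of all genes, with a median difference of -0.85, or -0.91 to -0.72 under the other scalings and -1.30 to -0.41 when 1 array was left out; 2 were lower at an unadjusted p under 0.05, beside 6.83%. The summed signal was 55.9, 143, 241 and 270. Ucp1, the uncoupling protein that lets brown fat make heat, had levels of 4.10, 5.88, 7.02 and 7.33 and a difference of -2.19 with a standard error of 0.67 (limma, adjusted p = 0.265). Cidea, a lipid droplet protein with the brightest probe of the list by its mean over the 4 arrays, had levels of 5.14, 6.31, 6.70 and 6.68 and a difference of -0.96. None of the 5 was at background on any array. As for Fabp4 and Plin1, Myd88-KO array 1 was the lowest for both named genes, and without it their differences were -1.30 and -0.38.

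The isoforms differed within the Wildtype group in unequal measure. Between the Wildtype arrays Cox6a2 differed by 2.11, Myh4 by 2.60 and Myh8 by 2.54, whereas Cox7a1 and Cox8b differed by 0.24 and 0.12 and Ucp1 by 0.30. Skeletal muscle markers were not alike in this. On Wildtype arrays 1 and 2 Tnnc2 was at 2.26 and 5.04 and Ckm at -0.95 and 1.12. Mb was at -2.27 and -2.03, Myh1 at -0.91 and -0.66 and Myh2 at -2.37 and -2.44. Between the Myd88-KO arrays Cox6a2, Cox7a1 and Cox8b differed by 0.64, 0.60 and 1.07, in the direction of Fabp4 (0.67), Plin1 (0.87), Cidea (1.16) and Ucp1 (1.78). The adipocyte marker Retn ran the other way, at 1.64 and -0.07 on Myd88-KO arrays 1 and 2. In whole tissue, fewer cells of a type and less RNA per cell cannot be told apart, and the part of muscle and fat cells in the isoform differences was not tested. Heart markers (5 of 6 tested) had a median difference of -0.08, or -0.14 to 0.06 under the other scalings and -0.50 to 0.32 when 1 array was left out, and 0.46 for the 3 well above background on all arrays. At an unadjusted p under 0.05, 1 was higher and 1, Actc1, was lower, beside 9.82% and 6.83% of all genes. Nppa, the atrial peptide gene, was the brightest with a difference of 0.47, or 0.14 without Myd88-KO replicate 1. Actc1, cardiac actin, was at background on both Myd88-KO arrays and at least 2.49-fold higher in Wildtype. This bound rests on Wildtype array 2, at -1.37, since Wildtype array 1, at -4.00, was level with the Myd88-KO floors of -3.97 and -4.03. Myh6, a cardiac myosin, was at background on 1 Myd88-KO array and its groups overlapped. The 4 smooth muscle and myoepithelium markers had a median difference of 0.01, or -0.06 to -0.03 under the other scalings and -0.13 to 0.15 when 1 array was left out, with Acta2, smooth muscle actin, the brightest at -0.03, Tagln at 0.26 and Cnn1 at -0.17. Without Wildtype replicate 2 these were 0.18, 0.42 and 0.06.

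**Figure D2:**
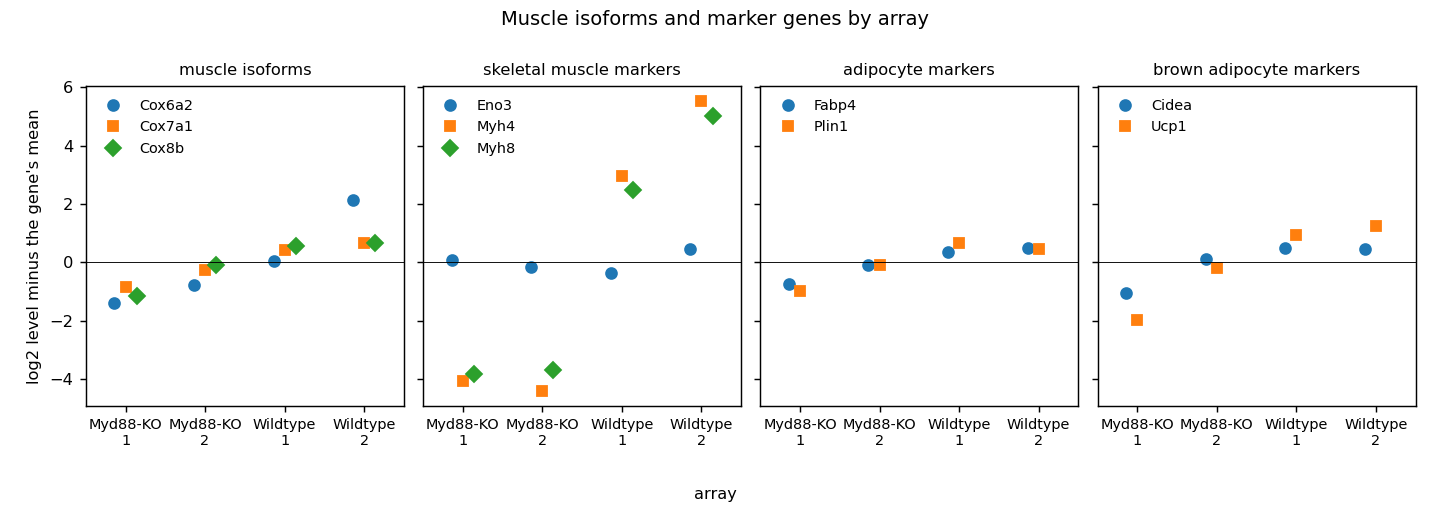
Level of the 3 muscle isoforms and of named markers of skeletal muscle, adipocytes and brown adipocytes on each array, as the log2 level minus the gene's mean over the 4 arrays (vertical axis), with 1 point per gene and array. Cox6a2 and the myosins Myh4 and Myh8 are highest on Wildtype array 2, and the 3 isoforms and the named fat markers are lowest on Myd88-KO array 1.

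Across all 97 tested respiratory chain genes, limma called 0 at an adjusted p of 0.05, and 0% of all 22312 genes, where the smallest adjusted p was 0.194. At an unadjusted p under 0.05, 3 of the 97 were lower in Myd88-KO (Cox17, Cox7a1 and Cox8b) and 0 were higher, or 2 lower without Cox17, which was at background on both Myd88-KO arrays, beside 6.83% of all genes lower and 9.82% higher. Other fits gave other counts: 0 of the 97 were called with trended and robust moderation, with the methods' t-test and with normexp background correction, and 1, Cox6a2, was called with each array centred on its median. Over all genes these 4 fits called 482, 1, 79 and 402.

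Small differences in one direction were common. Of the 97 genes, 76 had a difference below 0, beside 40.4% of all genes. Both Myd88-KO arrays lay below both Wildtype arrays for 40 genes (41.2%), beside 18.7% of all genes, and above them for 6 (6.19%), beside 33.2% of all genes; for 51 the groups overlapped. The median difference was -0.09, and -0.08 without the muscle isoforms, beside 0.06 for all genes. Single differences were mostly no larger than their errors, with 53 of the 97 within 1 standard error of 0, beside 9592 of all 22312 genes, and a median standard error of 0.11. Among genes with a mean level above 5, where respiratory chain genes are frequent, the median was -0.08 for 63 of them and 0.10 for all 1531 genes.

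The count of separated genes depended on the scaling. With each array centred on its median, 4.12% of the respiratory chain genes and 8.37% of all genes were lower on both Myd88-KO arrays, so that their order turned. Under the other 4 scalings the shares were 64.9% to 78.4% for respiratory chain genes and 18% to 27.2% for all genes. The difference also leaned on 1 array. Wildtype array 2 was the highest of the 4 for 74 of the 97 genes, and Myd88-KO array 1 the lowest for 56. Without Wildtype replicate 2 the median difference was -0.01, and 56 of the 97 genes were below 0.

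**Figure D3:**
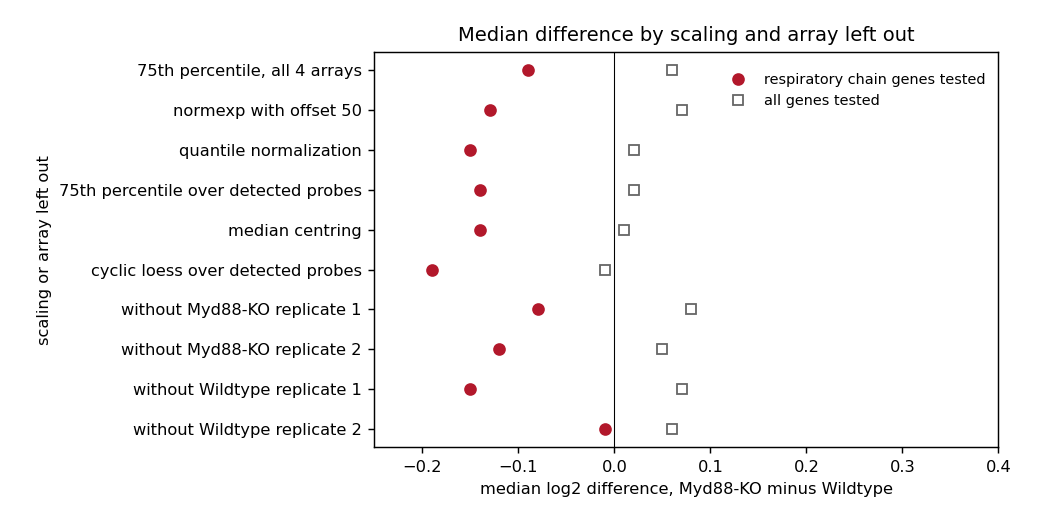
Median log2 difference, Myd88-KO minus Wildtype (horizontal axis), of the 97 respiratory chain genes and of all genes tested, for each scaling and each array left out (vertical axis). The respiratory chain median lies to the left of the all-gene median in each line, and comes nearest to 0, at -0.01, without Wildtype replicate 2.

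Complex I takes electrons from NADH. Its 36 tested subunits had a median difference of -0.11, with 35 below 0 and 18 lower on both Myd88-KO arrays, beside 40.4% and 18.7% of all genes, and 0 higher, beside 33.2%; the same shares of all genes stand beside the counts of the other complexes. Their median level was 5.56, 5.59, 5.59 and 5.77, so that 3 arrays were alike and Wildtype array 2 was higher. Among the 7 core subunits, which carry electrons from NADH to ubiquinone or support those that do, the median difference was -0.14 and 6 were lower on both Myd88-KO arrays; among the 29 accessory subunits it was -0.11, with 12 lower. The median of the whole complex was -0.04 without Wildtype replicate 2 and -0.18 without Wildtype replicate 1, and -0.20 with loess.

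Ndufv1, which binds NADH, had levels of 6.14, 6.16, 6.31 and 6.34 and a difference of -0.18 with a standard error of 0.10 (limma, adjusted p = 0.439). Its arrays agreed closely within each group and did not overlap between groups. The iron-sulfur subunits Ndufs1 and Ndufv2 had differences of -0.14 and -0.10. The difference of Ndufv2 was -0.03 without Wildtype replicate 2, and that of Ndufs1 was -0.09 without Myd88-KO replicate 1. The accessory subunit with the largest difference, Ndufs4, had levels of 3.99, 4.07, 4.20 and 4.40 and a difference of -0.27, or -0.17 without Wildtype replicate 2; it was named after its values were seen.

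Complex II, succinate dehydrogenase, belongs to both the chain and the TCA cycle. Its 4 subunits had a median difference of -0.15, and 3 were lower on both Myd88-KO arrays. Sdha, the flavoprotein, had levels of 5.03, 5.08, 5.21 and 5.20 and a difference of -0.15 with a standard error of 0.10 (limma, adjusted p = 0.5). The membrane anchors Sdhc and Sdhd had differences of -0.15 and -0.14, or -0.03 and -0.08 without Wildtype replicate 2. The iron-sulfur subunit Sdhb had levels of 6.88, 6.99, 6.90 and 6.99, and its groups overlapped; the difference of -0.01 was 0.05 without Myd88-KO replicate 1. Without Wildtype replicate 2 the median of the complex was -0.05.

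Complex III passes electrons from ubiquinol to cytochrome c. Its 8 subunits had a median difference of -0.10, all 8 were below 0 and 4 were lower on both Myd88-KO arrays. The core protein gene Uqcrc1 had levels of 4.24, 4.15, 4.49 and 4.27 and a difference of -0.18 with a standard error of 0.13 (limma, adjusted p = 0.538), with Wildtype array 1 the highest; without that array it was -0.07. The Rieske iron-sulfur protein gene Uqcrfs1 had levels of 5.51, 5.61, 5.58 and 5.69 and a difference of -0.08, or -0.02 without Wildtype replicate 2, and its groups overlapped. The median of the complex was -0.05 without Myd88-KO replicate 1.

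The 11 widely expressed subunits of complex IV had a median difference of -0.16, and 7 were lower on both Myd88-KO arrays. Cox4i1, a subunit through which ATP regulates the enzyme, had levels of 7.04, 7.05, 7.13 and 7.27 and a difference of -0.15 with a standard error of 0.11 (limma, adjusted p = 0.538). The Myd88-KO arrays were nearly equal and below both Wildtype arrays. The matrix-side subunits Cox5a and Cox5b had differences of -0.16 and -0.19, Cox6b1, on the intermembrane side, of -0.18, and Ndufa4, once assigned to complex I, of -0.18. Without Wildtype replicate 2 the differences of Cox4i1, Cox5a, Cox5b, Cox6b1 and Ndufa4 were -0.08, -0.06, -0.07, -0.10 and -0.09, and the median of the complex was -0.07.

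The other forms of complex IV subunits followed no common direction. The lung form Cox4i2 had levels of 0.88, 0.69, 0.58 and 0.65 and a difference of 0.17, or 0.07 without Myd88-KO replicate 1. Cox7a2l had a difference of 0.07, or 0.01 without Wildtype replicate 2, with overlapping groups. The testis form Cox6b2 and the hypoxia-responsive Ndufa4l2 had differences of -0.06 and -0.28, with overlapping groups and a sign that turned without Wildtype replicate 2, to 0.08 and 0.05. The difference of Cox6b2 was also 0.01 with normexp. The testis form genes Cox7b2 and Cox8c were not tested, the former being well above background on no array and the latter on 1 Wildtype array.

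Complex V makes ATP. Its 15 subunits had a median difference of -0.04, with 3 lower and 3 higher on both Myd88-KO arrays and 9 overlapping, and the median was 0.01 without Wildtype replicate 2. The catalytic beta subunit gene Atp5b had levels of 8.08, 8.06, 8.13 and 8.16 and a difference of -0.07. The genes Atp5g1, Atp5g2 and Atp5g3 encode the same mature c subunit, which forms the rotor ring. Atp5g1 had levels of 6.87, 6.73, 6.46 and 6.65 and a difference of 0.24 with a standard error of 0.13 (limma, adjusted p = 0.430), although its other probe gave 0.02. Atp5g3 had levels of 7.47, 7.44, 7.15 and 7.30 and a difference of 0.23 with a standard error of 0.11 (limma, adjusted p = 0.403). Atp5g2 had a difference of -0.03, or 0.00 without Myd88-KO replicate 1. Without Wildtype replicate 1 the differences of Atp5g1 and Atp5g3 were 0.15 and 0.15, and with loess those of Atp5b, Atp5g1 and Atp5g3 were -0.20, 0.13 and 0.11. Both Myd88-KO arrays were above both Wildtype arrays for Atp5g1 and Atp5g3, and the groups overlapped for Atp5g2. Atp5j, a stalk subunit, at 0.16 (0.06 without Wildtype replicate 1), and Atp5k, a membrane subunit, at -0.24 (-0.14 without Wildtype replicate 2), were the other ends of the complex and were named after their values were seen.

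**Figure D4:**
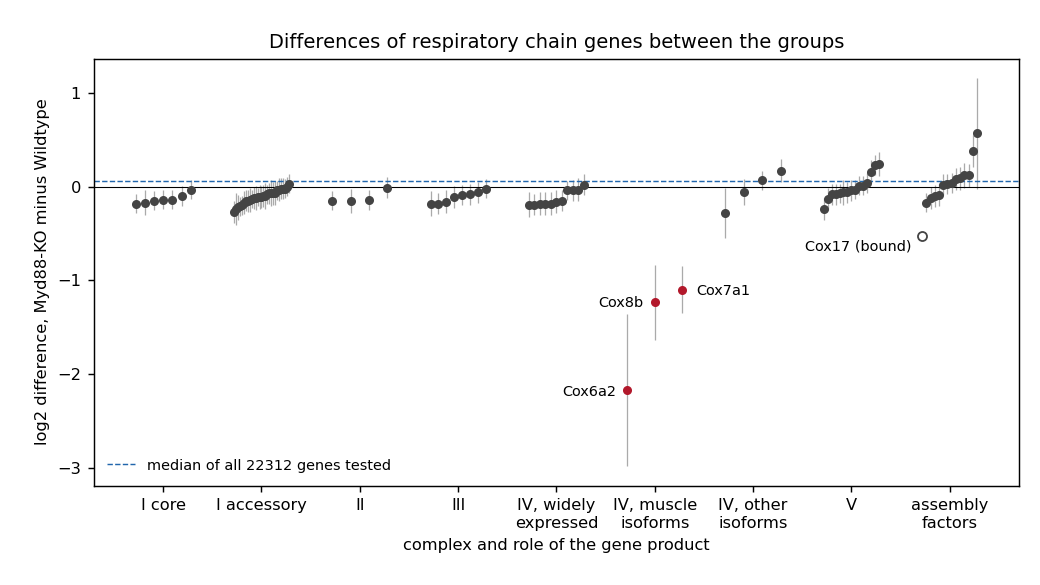
Log2 difference, Myd88-KO minus Wildtype (vertical axis), of the tested respiratory chain genes except Cox4nb and Atp5s, by complex and role (horizontal axis), with 1 point per gene and bars of 1 standard error; the dashed line is the median of all genes. Widely expressed subunits lie between -0.27 and 0.24, the muscle isoforms lie at -1.10 or below and the assembly factors reach 0.57; Cox17 is drawn as an open circle at its bound.

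Of the 14 assembly factors, which insert cofactors or join subunits and are not part of the finished complexes, 2 including Cox17 were lower and 1 was higher on both Myd88-KO arrays, beside 18.7% and 33.2% of all genes. Their median difference was 0.04, or -0.03 to -0.01 under the 5 other scalings and -0.02 to 0.08 when 1 array was left out. Ndufaf4, a complex I assembly factor named after its values were seen, had levels of 2.44, 2.33, 1.82 and 2.19 and a difference of 0.38, or 0.31 to 0.33 under the other scalings and 0.19 without Wildtype replicate 1. Cox10, which makes heme for complex IV and was also named after its values were seen, had levels of -1.39, -0.65, -0.87 and -2.30 and a difference of 0.57, or -0.14 without Wildtype replicate 2, and its groups overlapped. Cox17, the copper chaperone of complex IV, had levels of -5.18, -5.24, -3.54 and -3.40. It was not well above background on either Myd88-KO array and was at least 1.44-fold higher in Wildtype (adjusted p = 0.194 from limma). The other 2 probes of Cox17 did not stand well above background on any array, so they measure nothing here, and with normexp background correction the difference of the tested probe was -0.10.

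The rule by name also took in Cox4nb, now named Emc8, a subunit of a membrane protein complex of the endoplasmic reticulum, with a difference of 0.13. Atp5s and Atp5sl are now named Dmac2l and Dmac2 and had differences of 0.07 and 0.02. Without Wildtype replicate 1 these 3 differences were 0.06, -0.02 and -0.04, and Atp5f1, a stalk subunit of complex V, is now named Atp5pb. The brightest probes of Atp5j2 and Atp5l map to a chromosome other than that of their gene. For the 32 genes with several tested probes, the probes had 1 sign in 24.

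Other genes of mitochondrial metabolism were read for comparison, and limma at an adjusted p of 0.05 passed 0 genes in each of these lists. For comparison, 18.7% of all genes were lower and 33.2% higher on both Myd88-KO arrays, and 6.83% were lower and 9.82% higher at an unadjusted p under 0.05. The TCA cycle, which feeds NADH and succinate into the chain, leaned in one direction. All 13 genes had a difference below 0, 12 were lower on both Myd88-KO arrays, and 4 were lower and 0 higher at an unadjusted p under 0.05. The median difference was -0.27, -0.36 to -0.32 under the 5 other scalings and -0.34 to -0.20 when 1 array was left out. Sucla2, a subunit of succinyl-CoA synthetase, had levels of 4.57, 4.95, 5.21 and 5.39 and a difference of -0.54 with a standard error of 0.18 (limma, adjusted p = 0.285). Idh3a, a subunit of NAD-dependent isocitrate dehydrogenase, had levels of 4.12, 4.19, 4.49 and 4.71 and a difference of -0.44 with a standard error of 0.13 (limma, adjusted p = 0.254). The brightest, the malate dehydrogenase gene Mdh2, had levels of 6.95, 6.98, 7.06 and 7.25. Without Myd88-KO replicate 1 the difference of Sucla2 was -0.35, and without Wildtype replicate 2 that of Mdh2 was -0.10 in place of -0.19. For all 3 genes the groups were apart, with Myd88-KO array 1 lowest and Wildtype array 2 highest, the same end arrays as for the muscle isoforms and Ucp1. Plin1 was instead highest on Wildtype array 1, and Cidea was nearly level on the Wildtype arrays, at 6.70 and 6.68. Myh4 was at background on both Myd88-KO arrays, so the order of these 2 is not read. Of the 74 widely expressed subunits, 62 were highest on Wildtype array 2 and 49 lowest on Myd88-KO array 1, so these end arrays were common. The part of muscle and fat cells in the TCA cycle differences was not tested.

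Electron carriers beside the complexes had a median difference of -0.29 over 4 of 5 genes, or -0.39 to -0.32 under the other scalings and -0.39 to -0.15 when 1 array was left out, with 3 lower on both Myd88-KO arrays and 0 at an unadjusted p under 0.05. The electron transfer flavoprotein genes, which bring electrons from fatty acid oxidation, had differences of -0.27 for Etfb, the brightest, -0.31 for Etfa and -0.32 for Etfdh. Without Myd88-KO replicate 1 these were -0.18, -0.20 and -0.12. The 16 glycolysis genes had a median difference of -0.16, or -0.25 to -0.21 under the other scalings and -0.24 to -0.10 when 1 array was left out; 10 were lower and 1 was higher on both Myd88-KO arrays, and 3 were lower and 0 higher at an unadjusted p under 0.05. The brightest, the aldolase gene Aldoa, had a difference of -0.26, or -0.13 without Wildtype replicate 2. Pgam2, the muscle phosphoglycerate mutase, had levels of -3.90, -2.66, -1.24 and 1.17, with Wildtype array 2 far above the others as for Cox6a2; its difference was -3.25, or -2.04 without that array. Pfkl, the liver-type phosphofructokinase, had levels of 0.01, -0.16, 0.79 and 0.97 and a difference of -0.95 with a standard error of 0.13 (limma, adjusted p = 0.194).

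The remaining mitochondrial lists differed less. The 9 regulators of mitochondrial biogenesis had a median difference of 0.03, or -0.02 to 0.01 under the other scalings and -0.09 to 0.05 when 1 array was left out, with 1 lower and 0 higher at an unadjusted p under 0.05. Esrra, a nuclear receptor and the brightest, had a difference of 0.14, or 0.09 without Wildtype replicate 1, and the coactivator Ppargc1b one of -0.46. The related Pprc1 had levels of -1.56, -1.28, -2.07 and -1.33 with overlapping groups, and its difference of 0.28 was -0.09 without Wildtype replicate 1. The 14 tested genes listed as assembly factors outside the name rule had a median of -0.03. It was -0.10 to -0.06 under the other scalings and -0.06 to 0.02 when 1 array was left out. The brightest gene of this list was Usmg5, at -0.03 (0.03 without Myd88-KO replicate 1). In the list 2 genes were higher and 0 lower at an unadjusted p under 0.05: Sco1, a copper chaperone, at 0.43 and Ttc19, a complex III factor, at 0.37. Sco1 had levels of -1.05, -0.93, -1.41 and -1.43, higher on both Myd88-KO arrays.

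The 76 mitochondrial ribosome genes had a median difference of 0.02, or -0.05 to -0.02 under the other scalings and -0.02 to 0.07 when 1 array was left out, and 26 (34.2%) were higher and 11 (14.5%) lower on both Myd88-KO arrays, beside 33.2% and 18.7% of all genes, with 2 lower and 0 higher at an unadjusted p under 0.05. Mrpl33, the brightest, had a difference of 0.10, Mrps36 one of -0.40 and Mrps9 one of -0.28. This list was taken by symbol alone, Mrpl or Mrps and a digit. A place in the ribosome was not checked for each product, Mrps36 included. The 21 tested genes of mitochondrial import had a median of 0.08, or 0.02 to 0.04 under the other scalings and 0.07 to 0.12 when 1 array was left out, and 12 (57.1%) were higher and 0 lower on both Myd88-KO arrays, beside 33.2% and 18.7% of all genes, with 1 higher and 0 lower at an unadjusted p under 0.05. Tomm7, the brightest, had a difference of -0.03 (0.04 without Myd88-KO replicate 1), Timm8a1 one of 0.44 and Tomm40l one of 0.37 (0.23 without Wildtype replicate 1). The 13 mitochondrially encoded genes, whose products join the nuclear subunits, had a median of -0.05, or -0.14 to -0.10 under the other scalings and -0.19 to 0.07 when 1 array was left out, and 1 was higher and 0 lower at an unadjusted p under 0.05. Among these COX1, the brightest, had levels of 10.21, 10.34, 10.00 and 10.13, COX2 a difference of 0.40 and ND1 one of -0.29, or -0.16 without Myd88-KO replicate 1. On both Myd88-KO arrays 3 of the 13 (23.1%) were higher and 1 was lower, beside 33.2% and 18.7% of all genes.

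The 9 leukocyte markers had a median difference of -0.44, or -0.50 to -0.46 under the other scalings and -0.88 to -0.11 when 1 array was left out, and 4 were lower and 1 was higher on both Myd88-KO arrays, beside 18.7% and 33.2% of all genes; the counts at an unadjusted p under 0.05 were the same, beside 6.83% and 9.82%. Among the 7 well above background on all arrays 2 were lower and 1 was higher, and the median was -0.09. The summed signal was 57.4, 60.9, 55.3 and 59.5. Itgam, an integrin chain of myeloid cells, was the brightest and had a difference of 0.23, or 0.06 without Wildtype replicate 1. The B cell gene Ms4a1 was at background on both Myd88-KO arrays and at least 28.5-fold higher in Wildtype. It was higher on Wildtype array 1 than on Wildtype array 2, the opposite order to Cox6a2 and the myosins.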

How the data were processed

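Each sample was 1 array, and groups were taken from the titles in the labels. The authors deposited the output of Agilent Feature Extraction 10.7.3.1 for each array. Per the file headers, the authors' processed signal is an intensity from which background and spatial trends were removed, with a surrogate value for dim spots, and arrays were not normalized to each other. For the normexp alternative the deposited raw values were used: the mean intensity of each spot and the median intensity of its local background. Deposited flags tell which spots are well above background, saturated or outliers. The series also has a processed table, which stayed unused because its 4 value columns match no single sample.

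From these files, control spots and outlier spots were left out, the log2 processed signal was scaled by subtracting the array's 75th percentile, and probes with several spots took their mean. Probes entered the test if, for 1 group or both, each array had over a share of 0.5 of their spots well above background, and each gene took its brightest such probe. An unpaired limma fit (version 3.58.1, R 4.3.3; lmFit, then eBayes) compared the groups, and p-values of all 22312 genes were adjusted after Benjamini and Hochberg at a threshold of 0.05. The procedure was tested on simulated data. Noise there was independent between genes, so deviations shared by many genes of an array were not covered. Summed signals of a list add up the linear signals of its tested genes relative to the 75th percentile.

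Genes named are the muscle isoforms and their partners, fixed core subunits and isoforms, the up to 5 genes with the largest difference in each direction among those separated between groups at an unadjusted p under 0.05 (3 genes qualified), and of each other list the gene with the highest mean level and the 2 with the largest difference. Tnnc2, Ckm, Mb, Myh1, Myh2 and Retn were named outside this rule, after their values were seen, as were the genes marked so above. The genes, lists and tests were chosen with earlier results of these data known. Names and promoters come from RefSeq tables of GRCm38.p6, in which all 99 genes had a symbol.

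Alternatives were scaling by the 75th percentile of detected probes only, median centring, quantile normalization, cyclic loess, normexp with offset 50, no filter and a stricter filter, the mean of a gene's probes, outlier spots kept, moderation with a trend and robust variances, the methods' t-test, leaving out 1 array at a time, a block for the replicate number, and, added after seeing the data, a block for crossed pairs.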

Additional observations from a re-analysis of the deposited data

How the results depend on the processing

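All 16 planned settings and 1 added setting were run. The muscle isoform contrasts were computed in 13 and kept their sign. So did 24 of 30 genes followed over 13 settings (Cox17 over 12), which were the fixed genes, Myd88 and Cox17. Other genes named above lie outside this count. Some of them also turned when 1 array was left out, among them Cox10 and Pprc1. Median centring and the percentile over detected probes cannot move a contrast within an array, so for the contrasts they test nothing. The cause was not tested for the changes below, except that a lone array left in a group is assumed to vary like the other group. Over all genes, 79 passed the adjusted threshold with normexp, 402 with median centring, 482 with trended and robust moderation and 1 with the methods' t-test, against 0. Of the respiratory chain genes 1 passed with median centring (Cox6a2, difference -2.22), against 0. At an unadjusted p under 0.05, against 3 genes lower and 0 higher, normexp, loess and trended moderation each gave 9 lower, the methods' t-test 5, and trended moderation 3 higher; with each array left out 1 to 4 were lower and 0 to 1 higher. Over all genes the split of 2190 higher and 1525 lower became 1754 and 1805 with the percentile over detected probes, 1700 and 1660 with quantile normalization, 1621 and 2167 with loess and 240 and 755 with median centring.

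Genes lower on both Myd88-KO arrays (40) numbered 65 with normexp and with the percentile over detected probes, 63 with quantile normalization, 4 with median centring and 76 with loess, and 40 to 80 with each array left out, where 1 array against 2 separates more easily; genes higher (6) numbered 1 with median centring and 8 to 26 with each array left out. With loess the median was -0.19 over all respiratory chain genes, -0.20 for complex I, -0.21 for complex III, -0.27 for complex IV and -0.14 for complex V. For complex II it was -0.19 with normexp and with detected probes, -0.21 with quantile normalization, -0.20 with median centring, -0.24 with loess and -0.18 to -0.05 with each array left out. The sign turned for Cox7a2 (-0.06 with normexp and with quantile normalization, -0.03 with detected probes and with median centring, -0.08 with loess, -0.05 to 0.08 with each array left out) and for Cox6b2 (0.01 with normexp, -0.20 to 0.08 with each array left out). With each array left out it also turned for Cox8a (-0.12 to 0.04), Ndufa4l2 (-0.61 to 0.05), Sdhb (-0.07 to 0.05) and Atp5g2 (-0.05 to 0.00).

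The labels number the arrays of each group, but nothing says that equal numbers share a source, and the deviations of equal-numbered arrays correlated at -0.37 over 22312 genes. With the replicate number as a block, 0 genes passed, 1238 were higher and 1172 lower at an unadjusted p under 0.05, and of the respiratory chain genes 4 were lower and 0 higher; it changed no other call. With the pairs crossed, added after seeing the data, 0 genes passed, 2317 were higher and 1840 lower, and 3 respiratory chain genes were lower and 0 higher.

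With 2 arrays per group on 1 slide, a single array can enlarge or carry a difference. Without Wildtype replicate 2 the difference of Cox6a2 was -1.11 in place of -2.17. The median of the 97 respiratory chain genes was then -0.01 in place of -0.09. The share of probes well above background ranged from 52.2% to 74.1% between arrays, and its part in the differences was not tested.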
